A study of Mus musculus with 4 samples.

Results

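The genes described here encode the enzymes that make cholesterol and fatty acids from acetyl-CoA, with 4 genes that sense or move sterols. They were taken from a list of 31 symbols, and 30 of them had a probe set paired with their symbol alone, out of 19938 genes measured; Acat2 was not analysed here. The cells were ATDC5, a chondroprogenitor line of the mouse that was derived from a teratocarcinoma and lays down cartilage-like matrix in culture. The day 15 group had been given insulin, transferrin and selenite in the basal medium for 15 days, and the day 0 group was the same line kept undifferentiated. Both groups grew in medium with serum, glutamine and ascorbic acid, and no cells were held for 15 days without the supplement, so time in culture, supplement and differentiation cannot be told apart. Each group had 2 samples, numbered replicate 1 and 2, and the total RNA of each was read on its own whole-transcript array. Levels are log2 of the deposited intensity plus 1 after quantile normalization, and a difference is the day 15 mean minus the day 0 mean on this scale.

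Cholesterol synthesis starts with the mevalonate pathway, which turns acetyl-CoA into isoprenoid units, and goes on through squalene and lanosterol. Fatty acid synthesis starts from cytosolic acetyl-CoA, and its products are then elongated and desaturated. Both pathways are switched on by the sterol regulatory element-binding proteins (SREBPs), which are held in the endoplasmic reticulum by Insig proteins when sterols are plentiful, and insulin raises the activity of the SREBP form that drives fatty acid genes. In people, defects of late sterol enzymes such as EBP and NSDHL disturb the growth plate and cause skeletal dysplasias, and the hedgehog ligands of cartilage carry cholesterol.

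None of the 30 genes passed the test between the days. With limma, 1.72% of all 19938 genes had a Benjamini-Hochberg adjusted p below 0.05 (1.30% higher and 0.411% lower at day 15), and the lowest adjusted p among the 30 was 0.332, for Stard4. At an unadjusted p below 0.05 there was 1 of the 30, Stard4, lower at day 15, against 4.78% of all genes lower and 7.38% higher at that level. The differences were small and mostly negative. Of the 30 genes 24 had a negative difference (80.0%, against 46.8% of all genes), the median was −0.22 log2 against 0.02 for all genes, and the range ran from −0.74 for Fasn to 0.21 for Dhcr7. None differed by 1 log2 or more, which 4.0% of all genes did, and 5 (16.7%) differed by at least 0.5 log2, against 13.8% of all genes. The 30 genes were bright, with a median level at percentile 92.0 of all genes. The shares of all genes were not matched for level and include many dimmer genes. In RNA from whole cultures, a change in the share of cells that express a gene and a change in its RNA per cell cannot be told apart.

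**Figure D1:**
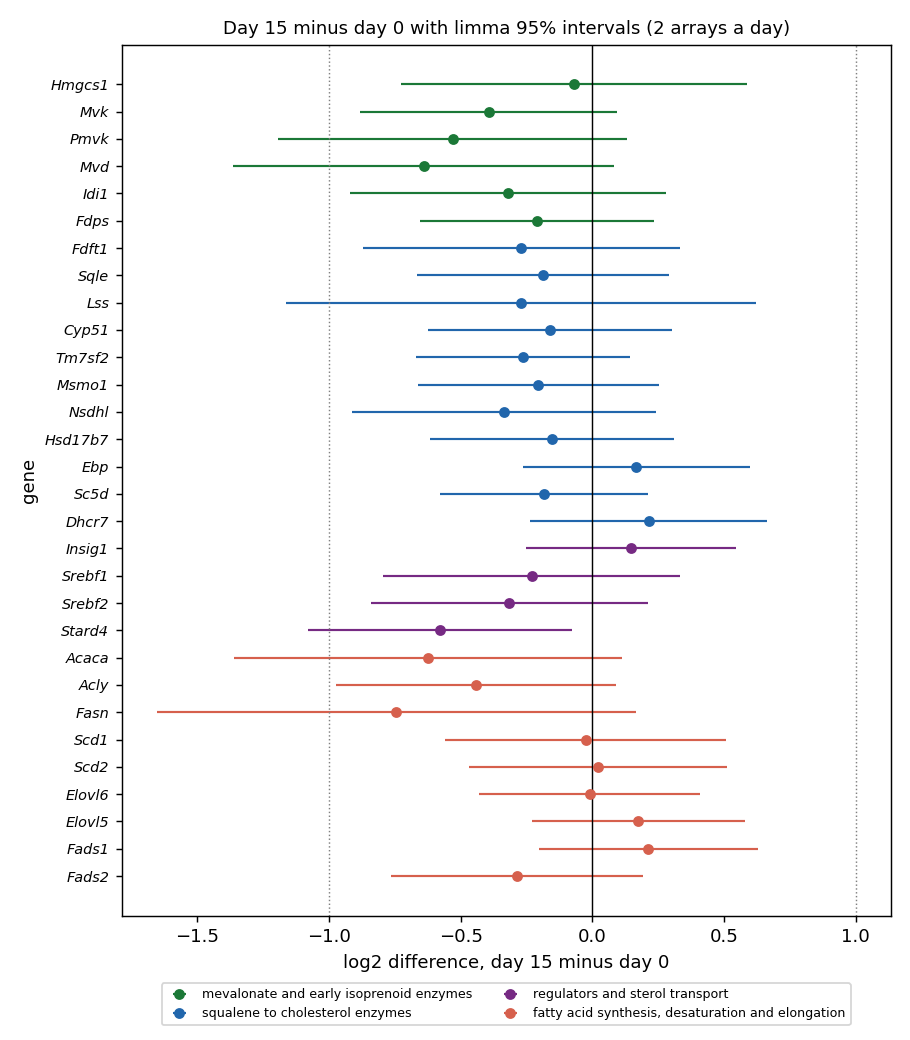
Difference of each of the 30 genes between day 15 and day 0 (horizontal axis, log2), with points at the difference of the means of 2 arrays a day and bars for limma's 95% interval without adjustment; dotted lines mark a 2-fold change either way. The intervals of 29 genes include 0, and 24 lie wholly inside the dotted lines.

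The 95% interval of the difference, which is not adjusted for the number of genes, lay within a 2-fold change in either direction for 24 of the 30 genes (80.0%, against 81.1% of all genes). For these 24 a change of 2-fold or more was thus outside the interval. The remaining 6 were Pmvk, Mvd, Lss, Stard4, Acaca and Fasn, whose intervals reached as low as −1.65 log2 for Fasn. No interval of the 30 reached above 0.66 log2.

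**Figure D2:**
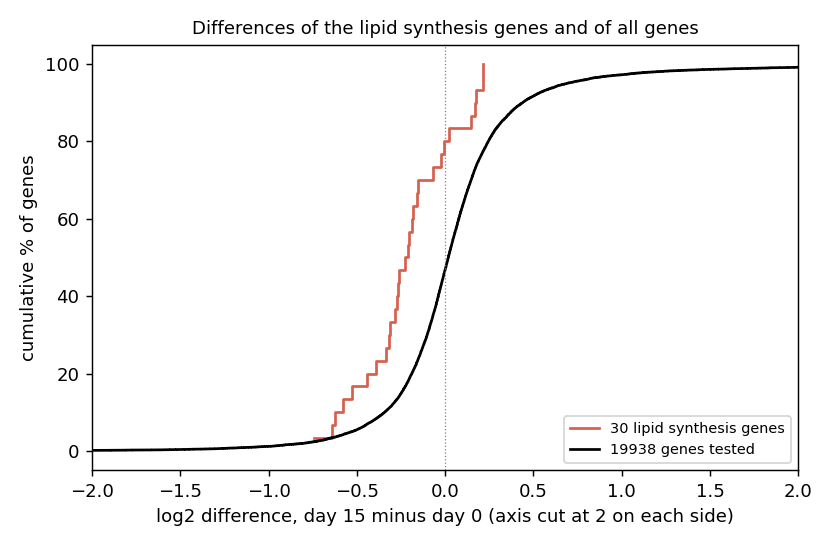
Cumulative percentage of genes (vertical axis) by their difference between day 15 and day 0 (horizontal axis, log2), for the 30 lipid synthesis genes and for all 19938 genes tested. The line of the 30 genes lies to the left, with 80.0% below 0 against 46.8% of all genes, and it holds no gene at or beyond 1 log2.

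The position of single arrays bears on this shift. Day 0 replicate 1 was the highest of the 4 arrays for 21 of the 30 genes (70.0%), against 21.6% of all genes. On day 0, replicate 1 lay above replicate 2 by a median of 0.32 log2 over the 30 genes, against 0.00 over all genes, whereas on day 15 the same difference was 0.05 over the 30 and 0.05 over all genes. The median difference of the 30 was −0.07 log2 with 19 negative when day 0 replicate 1 was left out, and −0.35 with 25 negative when day 0 replicate 2 was. Taken within a replicate number, day 15 was lower than day 0 for 25 genes in replicate 1 (83.3%, against 44.8% of all genes), with a median of −0.36 log2 against 0.04 for all genes. In replicate 2 it was lower for 18 genes (60.0%, against 49.3%), with a median of −0.07 log2 against 0.00. The sign was negative in both replicate numbers for 17 genes (56.7%, against 28.2% of all genes), positive in both for 4 (13.3%, against 34.1%), and opposite for 9.

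**Figure D3:**
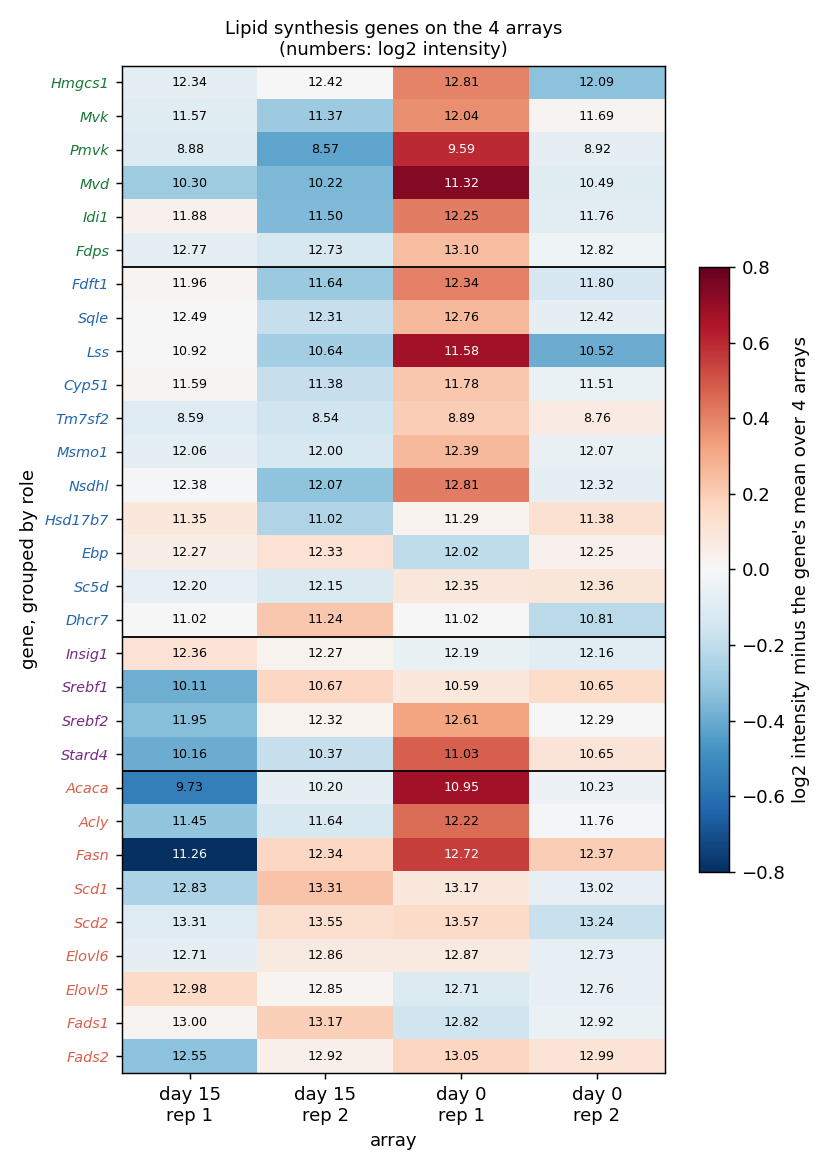
Log2 intensity of each of the 30 genes (rows, grouped by role) on each array (columns, day 15 then day 0), printed in the cells, with colour for the deviation from the gene's mean over the 4 arrays. Day 0 replicate 1 is the highest array in 21 rows, and the deepest blue cell is Fasn on day 15 replicate 1, at 11.26.

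Macrophage markers also separated the replicate numbers. Of 8 macrophage markers, 7 were higher in replicate 1 than in replicate 2 on both days. Of all genes 55.5% were so at day 15 and 50.1% at day 0. Among the 7 the size at day 15 ran from 0.54 log2 for Cd14 to 5.30 for C1qb. Adgre1 went the other way, at 7.48 and 7.65 log2 intensity at day 15 and 7.73 and 7.98 at day 0. The summed intensity of the 8 was 9057 and 2748 in day 15 replicates 1 and 2, against 8062 and 1698 in day 0 replicates 1 and 2. The 7 measured myelin markers summed to 5316 and 4547 at day 15 and to 3683 and 2175 at day 0, with 3 of the 7 higher in replicate 1 on both days. The 3 were Mbp, Mobp and Mal. Mbp was at 9.42 and 6.61 log2 intensity in day 15 replicates 1 and 2, and at 9.35 and 6.52 at day 0. Mobp was at 9.17 and 6.50 at day 15, and at 8.89 and 6.49 at day 0. Mal was closer, at 7.14 and 6.71 at day 15 and 7.09 and 6.64 at day 0. Cnp, the brightest term of that sum on each array, was at 11.68 and 11.84 log2 intensity at day 15, against 10.82 and 10.31 at day 0. The 8 adipocyte markers, whose cells make fatty acids in bulk, summed to 3203 and 3272 at day 15 and to 4445 and 4985 at day 0, and none was called. Pparg was the brightest term of that sum on each array and carried its fall, at 10.61 and 10.60 log2 intensity at day 15, against 11.47 and 11.68 at day 0. Adipoq, Fabp4 and Cidec, which mark mature fat cells, differed by −0.24, −0.25 and −0.10 log2, and Cebpa and Lipe by 0.27 and 0.28. None of these markers was at an intensity of 0, but no value on the arrays was, the lowest being 0.72. Among all genes ranked by mean level, Adipoq, Fabp4, Cidec and Lep lay at percentiles 15.8, 19.2, 29.8 and 12.6. Pparg lay at percentile 77.9, and the median of the 8 adipocyte markers was 34.5. No detection call was used, so the values do not show that the dim markers were expressed. The part in the results of the cells that these markers stand for was not tested. The label of a cartilage culture was checked with 10 chondrocyte markers, of which 5 were called higher at day 15, where 1.30% of all genes were, and none lower. Of 5 measured osteoblast markers all had positive differences and 1 was called, Ibsp, a protein of mineralized matrix (5.36 log2, limma adjusted p = 0.000606). Their summed intensity was 32960 and 41070 at day 15, against 21180 and 19930 at day 0. The rise of that sum was mostly Ibsp, at 13.66 and 13.73 log2 intensity at day 15, against 8.27 and 8.41 at day 0. Sp7, Alpl, Dmp1 and Col1a1 differed by 0.81, 0.32, 0.14 and 0.01 log2.

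The enzymes of the mevalonate pathway all had negative differences, with a median of −0.36 log2 over the 6 measured. Mvd, which decarboxylates mevalonate diphosphate to isopentenyl diphosphate (probe set 10582310), was at 10.30 and 10.22 log2 intensity at day 15, against 11.32 and 10.49 at day 0. Both day 15 arrays were below both day 0 arrays, and day 0 replicate 1 stood alone at the top. The difference was −0.64 ± 0.29 log2 (SE, limma adjusted p = 0.484, n = 2 arrays a day), and leaving out a day 0 array gave −0.22 (without replicate 1) or −1.06 (without replicate 2). Pmvk, which adds the second phosphate to mevalonate, was at 8.88 and 8.57 at day 15, against 9.59 and 8.92 at day 0, which do not overlap. Mvk, which adds the first phosphate, was at 11.57 and 11.37 at day 15, against 12.04 and 11.69 at day 0, also without overlap. The differences, −0.53 ± 0.27 for Pmvk and −0.39 ± 0.20 for Mvk (log2, SE), missed the threshold with limma adjusted p-values of 0.544 and 0.539. With day 0 replicate 1 left out the differences were −0.20 for Pmvk and −0.22 for Mvk, and with day 0 replicate 2 left out −0.86 and −0.57.

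The entry step and the prenyl steps of the same pathway had smaller differences. Hmgcs1, which makes HMG-CoA (probe set 10412466), was at 12.34 and 12.42 log2 intensity at day 15, between its day 0 values of 12.81 and 12.09. The difference came to −0.07 ± 0.27 log2 (SE, limma adjusted p = 0.985), and leaving out a day 0 array gave 0.29 (without replicate 1) or −0.43 (without replicate 2). Here the 2 arrays of day 0 were farther apart than the days. Idi1, the isomerase that activates isopentenyl diphosphate, was at 11.88 and 11.50 at day 15, against 12.25 and 11.76 at day 0, which overlap, and its second probe set gave nearly the same difference (−0.30 log2, against −0.32). Fdps, which joins the isoprenoid units to farnesyl diphosphate, was at 12.77 and 12.73 at day 15, against 13.10 and 12.82 at day 0, without overlap.

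The start-site regions of these genes are shown because the pathway is known for shared promoter elements. RefSeq windows of 300 bases, from 250 before to 50 after a start site (assembly GRCm38.p6), were found for 23 of the 30 genes, and each was searched on both strands for the letters CACNCCAC, the core of the sterol regulatory element bound by SREBPs, and CCAAT, the box bound by NF-Y, which works with SREBPs. TCACNCCAC is a stricter form that contains the first motif, and no CACNCCAC match overlapped a CCAAT match. CCAAT was in a window of 20 of the 23 genes (87.0%), against 41.1% of all 27025 genes with a window, a set that also holds noncoding genes and gene models. CACNCCAC was in 2 of the 23 (8.7%, against 7.1%), Hmgcs1 and Insig1, and the stricter TCACNCCAC in Hmgcs1 alone (4.3%, against 1.4%). A match is a description of letters and not a measured site, and a window without one says only that these letters are not in it. The 250 bases before the start site are printed 5′ to 3′ along the gene for the 2 genes with CACNCCAC and for Fasn and Mvd, which had the most negative differences of the fatty acid and of the sterol enzymes; capitals mark CACNCCAC and CCAAT on either strand (ATTGG is CCAAT read on the other strand).
Fasn: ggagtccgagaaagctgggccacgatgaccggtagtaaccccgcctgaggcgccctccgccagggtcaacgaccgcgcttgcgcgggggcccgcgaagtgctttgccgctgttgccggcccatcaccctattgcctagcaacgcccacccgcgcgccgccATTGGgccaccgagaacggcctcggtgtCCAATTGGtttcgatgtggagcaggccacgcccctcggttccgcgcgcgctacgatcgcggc
Mvd: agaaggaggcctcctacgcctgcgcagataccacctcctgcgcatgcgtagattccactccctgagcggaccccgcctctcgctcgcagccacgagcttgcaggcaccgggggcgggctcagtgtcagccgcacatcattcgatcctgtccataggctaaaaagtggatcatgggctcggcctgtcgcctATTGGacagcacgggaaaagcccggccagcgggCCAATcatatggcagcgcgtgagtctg
Hmgcs1: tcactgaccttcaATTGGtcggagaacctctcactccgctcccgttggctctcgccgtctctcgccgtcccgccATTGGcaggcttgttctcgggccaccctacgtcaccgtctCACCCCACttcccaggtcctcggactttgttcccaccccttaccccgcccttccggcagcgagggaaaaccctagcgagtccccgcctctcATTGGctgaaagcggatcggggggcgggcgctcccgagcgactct
Insig1: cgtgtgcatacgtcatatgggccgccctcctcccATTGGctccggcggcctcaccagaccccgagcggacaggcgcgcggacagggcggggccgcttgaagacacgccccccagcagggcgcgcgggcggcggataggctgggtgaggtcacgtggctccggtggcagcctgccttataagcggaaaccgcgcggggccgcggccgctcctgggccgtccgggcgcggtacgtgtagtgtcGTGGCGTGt
These stretches lie at chr11:120824548-120824797 on the minus strand for Fasn, chr8:122443423-122443672 on the minus strand for Mvd, chr13:119690101-119690350 on the plus strand for Hmgcs1 and chr5:28071162-28071411 on the plus strand for Insig1. In Fasn a match on each strand overlaps in the letters CCAATTGG, downstream of a separate ATTGG. In Hmgcs1 the CACNCCAC match lies between the second and the third ATTGG, and in Insig1 it lies on the other strand next to the start site. Hmgcs1 and Insig1, the 2 genes with the sterol element letters, had differences of −0.07 and 0.15 log2. Whether these letters bear on the differences was not tested.

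The 11 enzymes from squalene to cholesterol had a median difference of −0.19 log2, with 9 negative and 2 positive. Nsdhl, which helps remove methyl groups from the sterol ring and whose loss in mice disturbs skin and skeleton, was at 12.38 and 12.07 log2 intensity at day 15, against 12.81 and 12.32 at day 0. Lss, which folds oxidosqualene into lanosterol, was at 10.92 and 10.64 at day 15, against 11.58 and 10.52 at day 0. In both genes the days overlapped, and the differences were −0.33 ± 0.23 and −0.27 ± 0.36 log2 (SE, limma adjusted p = 0.721 and 0.906). Lss turned to 0.26 log2 without day 0 replicate 1. The squalene-forming enzyme Fdft1 was at 11.96 and 11.64 at day 15, against 12.34 and 11.80 at day 0, and its second probe set gave −0.23 log2 beside the −0.27 of the first. Sqle, the oxygenase that makes the first oxygenated sterol precursor, was at 12.49 and 12.31 at day 15, against 12.76 and 12.42 at day 0. Both overlapped between the days, with day 0 replicate 1 the highest array in each.

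The other enzymes with a negative sign differed by 0.15 to 0.26 log2 in size. Cyp51, the lanosterol demethylase, was at 11.59 and 11.38 log2 intensity at day 15, against 11.78 and 11.51 at day 0. Msmo1, the sterol methyl oxidase, was at 12.06 and 12.00 at day 15, against 12.39 and 12.07 at day 0, and Sc5d, the desaturase of the sterol ring, was at 12.20 and 12.15 at day 15, against 12.35 and 12.36 at day 0. After quantile normalization Msmo1 and Sc5d did not overlap between the days, though Msmo1 did in the deposited intensities. The day 0 arrays of Sc5d were almost the same. Tm7sf2, a sterol reductase, also had both day 15 arrays (8.59 and 8.54) below both day 0 arrays (8.89 and 8.76). Hsd17b7, the ketosteroid reductase of the pathway, was at 11.35 and 11.02 at day 15, against 11.29 and 11.38 at day 0, and overlapped. Adjusted p with limma ran from 0.666 to 0.906 over the 11 enzymes.

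The exceptions in sign were the isomerase Ebp and the final reductase Dhcr7, which turns 7-dehydrocholesterol into cholesterol. Ebp was at 12.27 and 12.33 log2 intensity at day 15, against 12.02 and 12.25 at day 0, with both day 15 arrays above. Dhcr7 was at 11.02 and 11.24 at day 15, against 11.02 and 10.81 at day 0, and its replicate 1 arrays were level between the days. The differences were 0.17 ± 0.17 for Ebp and 0.21 ± 0.18 for Dhcr7 (log2, SE; limma adjusted p = 0.852 and 0.794). Over the 17 sterol enzymes together, day 0 replicate 1 was the highest array for 13 (76.5%, against 21.6% of all genes) and day 15 replicate 2 the lowest for 13 (76.5%, against 25.2%).

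The regulators did not pass the test either. Srebf2, the SREBP of sterol genes, was at 11.95 and 12.32 log2 intensity at day 15, against 12.61 and 12.29 at day 0. Srebf1, whose products drive fatty acid genes, was at 10.11 and 10.67 at day 15, against 10.59 and 10.65 at day 0. Both were lowest on day 15 replicate 1, and in replicate 2 the days differed by only 0.03 and 0.02 log2. Insig1, which holds SREBPs in the endoplasmic reticulum and is itself a target of theirs, was at 12.36 and 12.27 at day 15, against 12.19 and 12.16 at day 0, a difference of 0.15 ± 0.16 log2 (SE, limma adjusted p = 0.866). Its day 15 arrays were both above its day 0 arrays. Stard4, a carrier that moves cholesterol between membranes (probe set 10458033), was at 10.16 and 10.37 at day 15, against 11.03 and 10.65 at day 0. The Stard4 difference, −0.58 ± 0.20 log2 (SE), had the lowest p of the list (0.0305 unadjusted, limma adjusted p = 0.332) and a 95% interval from −1.08 to −0.08, and it was negative in both replicate numbers, at −0.87 and −0.28.

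Fatty acid genes divided by the step they serve. The 3 genes that make palmitate had negative differences, while those that elongate and desaturate it lay near 0 or on either side of it; this division was seen in the values and was not tested. Fasn, the fatty acid synthase (probe set 10393970), was at 11.26 and 12.34 log2 intensity at day 15, against 12.72 and 12.37 at day 0. Day 15 replicate 1 stood apart from the other arrays. It lay 1.46 log2 below day 0 replicate 1, while the replicate 2 arrays differed by −0.03. The difference of −0.74 ± 0.37 log2 (SE, limma adjusted p = 0.530) was the most negative of the 30 genes, and leaving out a day 15 array gave −0.21 (without replicate 1) or −1.28 (without replicate 2). Acaca, the acetyl-CoA carboxylase that makes malonyl-CoA, was at 9.73 and 10.20 at day 15, against 10.95 and 10.23 at day 0, with −1.22 log2 in replicate 1 and −0.03 in replicate 2. The second probe set of Acaca gave −0.29 log2, less in size than the −0.62 ± 0.30 (SE) of the first, and its days overlapped. Acly, which cuts citrate to supply acetyl-CoA, was at 11.45 and 11.64 at day 15, against 12.22 and 11.76 at day 0, a difference of −0.44 ± 0.22 log2 (SE). Adjusted p with limma was 0.513 for Acaca and 0.523 for Acly.

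**Figure D4:**
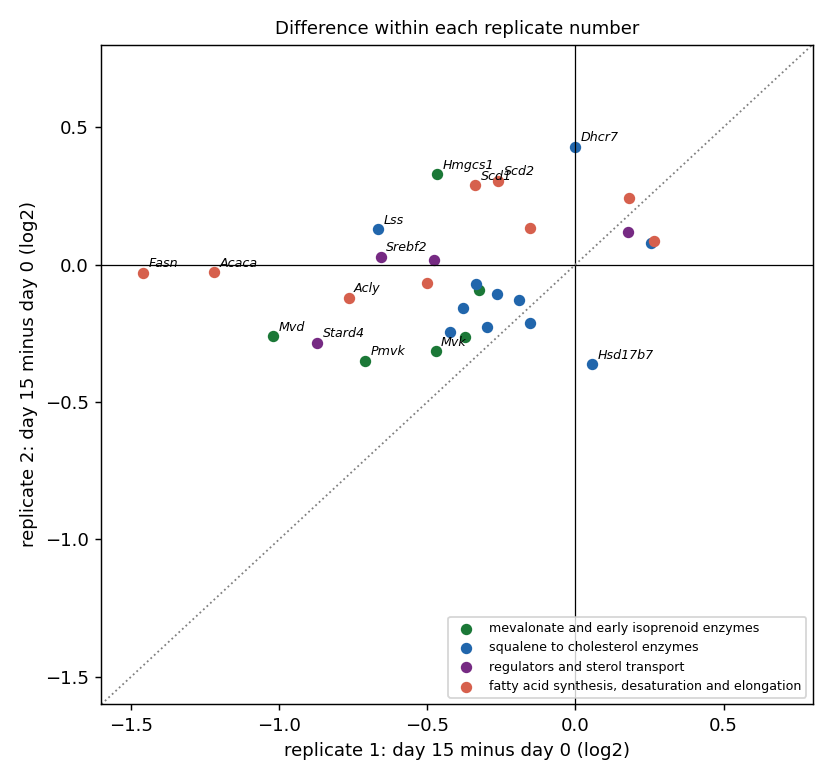
Difference between day 15 and day 0 within replicate 1 (horizontal axis, log2) and within replicate 2 (vertical axis, log2) for each of the 30 genes, 1 array on each side; the dotted line marks equal differences. Fasn and Acaca lie far to the left at about 0 in replicate 2, and 17 genes lie in the lower left part.

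The desaturases and elongases had differences of either sign, from −0.29 to 0.21 log2. Scd1 and Scd2, the stearoyl-CoA desaturases that make oleate, had differences of −0.02 ± 0.22 and 0.02 ± 0.20 log2 (SE). Scd1 was at 12.83 and 13.31 log2 intensity at day 15, against 13.17 and 13.02 at day 0, and Scd2 at 13.31 and 13.55 at day 15, against 13.57 and 13.24 at day 0. The day 15 arrays lay outside the day 0 pair for Scd1 and inside it for Scd2, with 95% intervals from −0.56 to 0.51 for Scd1 and from −0.47 to 0.51 for Scd2; the genes are close paralogs, and whether their probe sets tell them apart was not examined. Elovl6, which extends palmitate to stearate, was at 12.71 and 12.86 at day 15, against 12.87 and 12.73 at day 0. Elovl5, the elongase of polyunsaturated fatty acids, was at 12.98 and 12.84 at day 15, against 12.71 and 12.76 at day 0. Its day 15 arrays were both above, by 0.18 ± 0.16 log2 (SE) in the mean, and the limma adjusted p was 0.828. The desaturases of polyunsaturated fatty acids had opposite signs: Fads1 was at 13.00 and 13.17 at day 15, against 12.82 and 12.92 at day 0, while Fads2 was at 12.55 and 12.92 at day 15, against 13.05 and 12.99 at day 0. Neither overlapped between the days, and the differences were 0.21 ± 0.17 for Fads1 and −0.29 ± 0.19 for Fads2 (log2, SE; limma adjusted p = 0.774 and 0.706). Day 15 replicate 1 was the lowest array for 6 of the 9 fatty acid genes, against 23.6% of all genes, and for none of the 17 sterol enzymes.

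Counted over the whole list, both day 15 arrays were below both day 0 arrays for 12 of the 30 genes, where 17.8% of all genes were so placed, and above them for 4, where 22.3% of all genes were. The 12 were Mvk, Pmvk, Mvd, Fdps, Tm7sf2, Msmo1, Sc5d, Stard4, Acaca, Acly, Fasn and Fads2, and the 4 were Ebp, Insig1, Elovl5 and Fads1. All counts here are of quantile normalized levels. In the deposited intensities the days of Acaca and Msmo1 overlapped. Acaca was at 1214.27 in day 15 replicate 2, against 1173.12 in day 0 replicate 2. Msmo1 was at 4291.7 in day 15 replicate 1, against 4284.34 in day 0 replicate 2. Of the 30 genes, 5 had both day 15 arrays below and also a mean difference of at least 0.5 log2, against 4.89% of all 19938 genes. None of the 30 had both day 15 arrays above with a mean difference of that size, against 7.56% of all genes. The list was chosen with results of these arrays known, so these counts describe it and are no test of it.

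Genes next to the synthesis pathways included some with larger differences. Of 9 further genes of sterol synthesis and SREBP control none was called, and the largest differences were those of Rnf139, a ubiquitin ligase of the endoplasmic reticulum, and of Insig2, the partner of Insig1. Rnf139 was at 11.01 and 11.03 log2 intensity at day 15, against 10.47 and 10.53 at day 0 (0.52 ± 0.16 log2, SE, limma adjusted p = 0.259), and Insig2 was at 12.08 and 11.70 at day 15, against 11.57 and 11.18 at day 0 (0.51 ± 0.23, limma adjusted p = 0.468). Both lay wholly above their day 0 values. Of 16 genes of cholesterol uptake, export and storage none was called by limma at an adjusted p below 0.05, while 2 were higher and 1 lower at an unadjusted p below 0.05, where 7.38% of all genes were higher and 4.78% lower. Those were the lipoprotein receptors Vldlr and Lrp8, close relatives that both bind apolipoprotein E, and the cholesterol exporter Abca1. Vldlr was at 12.10 and 12.42 at day 15, against 10.92 and 11.26 at day 0, a difference of 1.17 ± 0.21 log2 (SE, limma adjusted p = 0.0745). Lrp8 was at 9.57 and 10.34 at day 15, against 11.32 and 11.67 at day 0, a difference of −1.54 ± 0.30 log2 (SE, limma adjusted p = 0.0909). Abca1, named after its values were seen, differed by 0.96 ± 0.21 log2 (SE, limma adjusted p = 0.122). In these 3 genes the days lay apart in both replicate numbers, with differences of 1.17 and 1.16 log2 for Vldlr and of −1.75 and −1.33 for Lrp8 in replicates 1 and 2. Vldlr was called with trend and robust hyperparameters (limma adjusted p = 0.0300) and Lrp8 with median centring (0.04997). With the replicate number as a block, which no label gives as a pairing, both were called (0.0240 and 0.0194). Neither was called on the deposited scaling (0.0744 for Vldlr, 0.106 for Lrp8). Without day 15 replicate 1 the differences were 1.33 log2 for Vldlr and −1.15 for Lrp8, and without day 15 replicate 2 they were 1.01 and −1.93.

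Single genes of fatty acid chain length and of fatty acid oxidation were called. Of 24 further genes of fatty acid synthesis and supply, 1 was called lower and none higher, where 0.411% of all genes were lower and 1.30% higher. It was Elovl7, an elongase of long saturated chains, at 9.05 and 8.06 log2 intensity at day 15, against 10.73 and 10.60 at day 0. Elovl7 fell by 2.11 ± 0.33 log2 (SE, limma adjusted p = 0.0494), and this call ended with median centring (0.0524) and without day 15 replicate 2 (−1.61 log2, 0.0522), day 0 replicate 1 (−2.04 log2, 0.0980) or day 0 replicate 2 (−2.17 log2, 0.0937). Acsl5, which activates fatty acids with coenzyme A, had the next largest difference, −0.75 ± 0.27 log2 (SE, limma adjusted p = 0.337). Of 14 genes of fatty acid oxidation, 1 was called higher and none lower, beside the same shares of all genes, 1.30% and 0.411%. Ppargc1a, a coactivator of mitochondrial and oxidative genes, was at 8.62 and 9.27 at day 15, against 7.09 and 6.92 at day 0. It rose by 1.94 ± 0.26 log2 (SE, limma adjusted p = 0.0296), and leaving out day 15 replicate 2 (1.61 log2, 0.0555), day 0 replicate 1 (2.03 log2, 0.0503) or day 0 replicate 2 (1.85 log2, 0.0762) ended the call. The dehydrogenase Acadm was second in that list at 0.52 ± 0.36 log2 (SE, limma adjusted p = 0.718), which ran from 0.12 to 0.92 when an array was left out. The medians of the lists were −0.03 log2 for the further fatty acid genes and 0.07 for fatty acid oxidation, near the 0.02 of all genes.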

How the data were processed

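The authors deposited 1 linear probe set intensity per array, judged from values that are never negative and reach 23103; how background, probes and arrays were combined is not stated in the labels, and no detection call was used. The number of arrays, 4, limits the precision. No label says that samples were separate cultures, and the spread behind the p-values may therefore be technical. Of 35512 probe sets, 21789 carried 1 gene symbol and were used, the brightest per gene. Array medians of log2 intensity plus 1 ran from 7.87 to 8.06, so all probe sets were quantile normalized. Day 15 was tested against day 0 with limma 3.58.1 (R 4.3.3; lmFit, eBayes, group only), checked on simulated data, with Benjamini-Hochberg adjustment over 19938 genes. The simulated arrays had independent noise, with each gene's spread already moderated across genes by limma, which may favour the test. There the test called 56% of 50 genes shifted by 1 log2 and 94% of 50 shifted by 2 log2. Real changes of 1 log2 or less, and some larger ones, can thus be missed. Members and lists were chosen with earlier results of these data known. Arrays are shown for the genes of the list; of each neighbouring list the genes called, or the 2 with the largest difference, are named. The alternatives were scaling, variance trend, a filter on dim genes, a replicate block, probe set averaging, the pseudocount and leaving out arrays. Promoter windows came from RefSeq. Figures used matplotlib 3.10.9.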

Additional observations from a re-analysis of the deposited data

How the results depend on the processing

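None of the 30 genes was called by limma under the deposited scaling, median centring, the variance trend, the filter on dim genes, the replicate block, probe set averaging, a pseudocount of 16 or leaving out any of the 4 arrays; at an unadjusted p below 0.05 there were 0 to 6, all lower at day 15, and the lowest adjusted p was 0.127 (Fasn, without day 15 replicate 2). The share of all genes at that unadjusted level was counted only for the main setting (4.78% lower and 7.38% higher, limma). The counts under the alternatives therefore have no share beside them. The median of the 30 stayed negative, from −0.35 to −0.07 log2 when an array was left out and from −0.23 to −0.18 under the other settings. With only the replicate 1 or only the replicate 2 arrays, a choice made after seeing the data, it was −0.36 and −0.07. Over all genes 149 to 219 were called higher and 29 to 65 lower when an array was left out, with a lone sample taken to vary as the remaining pair does, against 260 and 82 with all 4 arrays. The replicate number as a block called 440 higher and 188 lower; same-numbered arrays deviated together across genes (r = 0.403), but no label says that the numbers pair the samples. With the replicate block Lrp8 (limma adjusted p = 0.0194) and Vldlr (0.0240) were called and Elovl7 (0.0206) and Ppargc1a (0.0238) stayed called. With it 4 of the 30 had an unadjusted p below 0.05, and the share of all genes at that level was not counted. The sign of 8 of the 30 genes turned under some setting. Elovl6 was 0.021 log2 on the deposited scaling, and Scd2 was −0.0011 with median centring. Leaving out an array gave −0.43 to 0.29 for Hmgcs1, −0.54 to 0.0005 for Fdft1, −0.80 to 0.26 for Lss, −0.32 to 0.01 for Hsd17b7, −0.51 to 0.048 for Srebf1, −0.26 to 0.21 for Scd1, −0.14 to 0.19 for Scd2 and −0.085 to 0.067 for Elovl6. The cause was not tested. The filter on dim genes left out Tm7sf2 and Ppargc1a, and no detection call was used.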
